A study of Arabidopsis thaliana with 12 samples.

Results

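The genes examined are 30 members of the aliphatic glucosinolate biosynthesis pathway of *Arabidopsis thaliana*, listed by gene identifier for their place in the pathway, with earlier results of these data known. They comprise 3 regulators, 9 genes of side-chain elongation, 11 genes of the core structure and 7 genes of side-chain modification, out of 32824 genes in each table. Of the 30 members, 29 had a row. *AOP2* was not analysed here, and *AOP3* was listed at 0 in all 12 libraries. The other 28 members were tested, because their mean over the 12 libraries was at least 0.5 TPM (the FPKM values of a library rescaled to the same fixed sum in each). This mean is taken over all groups, and 25 of the 28 also reached 0.5 TPM in each of the 6 groups.

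RNA was sequenced from whole seedlings of the Col-0 wild type and of the mutants *rev-5* (rev5 in the labels) and *wox4*, which carry lesions in the transcription factor genes *REVOLUTA* (*REV*) and *WUSCHEL-RELATED HOMEOBOX4* (*WOX4*). All seedlings grew in continuous light. After 2 days in white light (WL), they either stayed in WL for another 8 days or spent these in white light enriched in far-red (WL+FR), a mimic of plant shade. Each of the 6 groups had 2 biological replicates, numbered 1 and 2 (Col-0 WL), 3 and 4 (Col-0 WL+FR), 5 and 6 (*wox4* WL), 7 and 8 (*wox4* WL+FR), 9 and 10 (*rev-5* WL) and 11 and 12 (*rev-5* WL+FR), and the values of a pair below follow these numbers. FPKM is a fragment count scaled to transcript length and library size, so that levels can be compared between genes per length.

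Glucosinolates are sulfur-rich glucosides that, once cut by myrosinases, give rise to defence compounds against herbivores and pathogens. The aliphatic class is made from methionine. The amino acid first loses its amino group and is lengthened in a cycle of condensation, isomerisation and oxidative decarboxylation in the plastid, the lengthened amino acid is then turned into the core glucosinolate through an aldoxime, a glutathione conjugate, a glucosylated and a sulfated intermediate, and the side chain is finally oxidised or converted further. The R2R3 MYB factors MYB28, MYB29 and MYB76 activate the genes of this pathway.

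The libraries differed little in depth, between 0.904 and 1.009 relative to Col-0 WL replicate 1, and replicates correlated at 0.971 to 0.976 over the tested genes. Libraries of different groups correlated at 0.951 to 0.972, a range that overlaps that of the replicates. Between 35.5% and 36.4% of the genes of a library were listed at 0, and an exact 0 can be a failed estimate. The deposited status was OK for all 32826 rows of each library, so none was flagged as failed. The level of *REV*, 3.52 to 4.48 FPKM in the 12 libraries, does not test the genotype of *rev-5*, which is an amino acid substitution. *WOX4* had 66.32 to 84.41 FPKM in the 4 libraries labelled *wox4* and 0.94 to 2.27 FPKM in the other 8 libraries, so that the transcript of the mutated gene was higher in them, and every direction given for *wox4* rests on the label. The 3 markers of green tissue summed to between 13372.7 and 15722.0 TPM and the 5 root markers to between 533.5 and 868.9 TPM in each library, while the 3 seed storage markers did not exceed 0.5 TPM in sum.

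As described below, the light response of *CYP83A1* and *GSTU20* differed between *rev-5* and Col-0, and *CYP79F1* was lower with light in every genotype. The promoters of these genes and of *CYP79F2*, which lies beside *CYP79F1*, are shown as examples, 4 in all. Each is the stretch of 250 bases before the annotated start in the TAIR10.1 reference, read 5′ to 3′ on the strand of the gene, with capitals for the G-box CACGTG, the site of bHLH factors such as MYC2, and for the AC element ACCTACC, a site of R2R3 MYB factors, both searched on both strands.
CYP79F1, chr1:5608432-5608681, plus strand: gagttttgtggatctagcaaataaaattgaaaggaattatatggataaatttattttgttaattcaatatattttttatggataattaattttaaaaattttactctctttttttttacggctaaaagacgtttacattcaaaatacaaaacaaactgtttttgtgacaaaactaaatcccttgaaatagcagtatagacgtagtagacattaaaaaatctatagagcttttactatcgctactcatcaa
CYP79F2, chr1:5604794-5605043, plus strand: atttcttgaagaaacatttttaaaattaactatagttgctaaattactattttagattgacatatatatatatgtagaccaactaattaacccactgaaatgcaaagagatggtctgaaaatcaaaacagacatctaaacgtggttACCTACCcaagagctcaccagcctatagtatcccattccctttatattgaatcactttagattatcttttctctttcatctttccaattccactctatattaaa
CYP83A1, chr4:7992430-7992679, minus strand: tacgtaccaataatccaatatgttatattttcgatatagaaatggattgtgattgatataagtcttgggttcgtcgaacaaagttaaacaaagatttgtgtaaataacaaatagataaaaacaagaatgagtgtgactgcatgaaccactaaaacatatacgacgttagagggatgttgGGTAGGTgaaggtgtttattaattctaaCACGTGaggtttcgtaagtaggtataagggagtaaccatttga
GSTU20, chr1:29485390-29485639, minus strand: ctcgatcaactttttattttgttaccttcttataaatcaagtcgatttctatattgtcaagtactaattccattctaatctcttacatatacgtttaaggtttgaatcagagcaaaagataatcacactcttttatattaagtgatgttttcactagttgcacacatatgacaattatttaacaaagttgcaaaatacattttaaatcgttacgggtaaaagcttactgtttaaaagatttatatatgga

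The promoter of *CYP83A1* held a G-box that begins at position -43 from the start and an AC element at -71, that of *CYP79F2* an AC element at -104, and those of *CYP79F1* and *GSTU20* held neither in this window. Among the 29 members with a row, the G-box was in 3 promoters (*IIL1*, *CYP83A1* and *SUR1*) and the AC element in 3 (*IPMI2*, *CYP79F2* and *CYP83A1*), 10.3% each. Over the 27443 promoters of protein-coding genes, 6.49% held the G-box and 1.16% the AC element. These matches are a description of letters and were not tested as binding sites.

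The summed level of the members was lowest in *rev-5* under WL+FR, which held for the elongation and core steps but not for the other steps. The summed level of all members was 1130.5 and 1135.8 TPM in Col-0 in WL and 1144.4 and 1176.9 TPM in Col-0 in WL+FR. *rev-5* had 908.2 and 870.6 TPM in WL, and 726.3 and 727.9 TPM in WL+FR. In the libraries labelled *wox4* the sum was 1078.4 and 1117.2 TPM in WL and 968.2 and 949.3 TPM in WL+FR. The sums of *rev-5* were thus below those of Col-0 in both lights, while those labelled *wox4* lay close to Col-0 in WL and below it in WL+FR. By step, *rev-5* in WL+FR had the lowest sums of elongation genes (89.3 and 101.4 TPM) and core genes (469.8 and 462.5 TPM). Its side-chain sum, 90.2 and 91.3 TPM, was above the 76.0 to 82.9 TPM of Col-0. Its regulator sum, 77.0 and 72.8 TPM, was above that of *rev-5* in WL (69.1 and 63.3 TPM). In 17 of the 26 tested members that were above 0 in every library, both *rev-5* WL+FR libraries were below the other 10, as they were in 2.79% of the 18789 tested genes above 0 in every library. In 6 of them (*IPMI2*, *IPMI1*, *CYP79F2*, *CYP83A1*, *UGT74C1* and *SOT18*) all 4 *rev-5* libraries were below the other 8 (1.44% of those genes), and in 1, *FMO GS-OX4*, they were all above (1.01%). In seedling RNA, fewer cells of a type and less RNA per cell cannot be told apart. The sum of the 5 root markers moved with genotype and with light. It was 533.5 and 560.7 TPM in Col-0 in WL and 751.1 and 739.9 TPM in WL+FR, 688.5 and 726.3 TPM in *rev-5* in WL and 776.7 and 861.5 TPM in WL+FR, and 603.2 and 634.9 TPM in *wox4* in WL and 868.9 and 815.7 TPM in WL+FR. In this sum both mutants were above Col-0 in each light, and WL+FR was above WL in each genotype. The sum was mostly *PYK10*, with a mean of 679.51 TPM over the 12 libraries, against 4.45 to 12.47 TPM for the other 4 markers. Of these markers limma called *PYK10* higher in *rev-5* in WL, *PYK10* higher with light in all 3 genotypes and *BGLU22* higher with light in Col-0 and *wox4*. Not every root marker followed the sum. With light in Col-0, *COBL9* (log2 -0.08) and *EXPA7* (-0.4) were below 0 without a call, and *PYK10*, *BGLU21* and *BGLU22* were above. In WL the *wox4* means of *COBL9* and *EXPA7* (2.06 and 3.31 FPKM) were below those of Col-0 (2.59 and 4.39 FPKM). The sum of the green markers also moved. In WL it was 13372.7 and 13824.9 TPM in Col-0, 15406.1 and 15722.0 TPM in *rev-5* and 14347.3 and 14726.5 TPM in *wox4*. In WL+FR it was 14921.4 and 14369.6 TPM in Col-0, 14522.0 and 15194.7 TPM in *rev-5* and 14735.6 and 14304.5 TPM in *wox4*. Of these markers limma called *LHCB1.1* and *RCA* higher in *rev-5* in WL, and *RBCS1A* was not called there. The part of these marker shifts in the differences of the members between genotypes and lights was not tested.

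**Figure D1:**
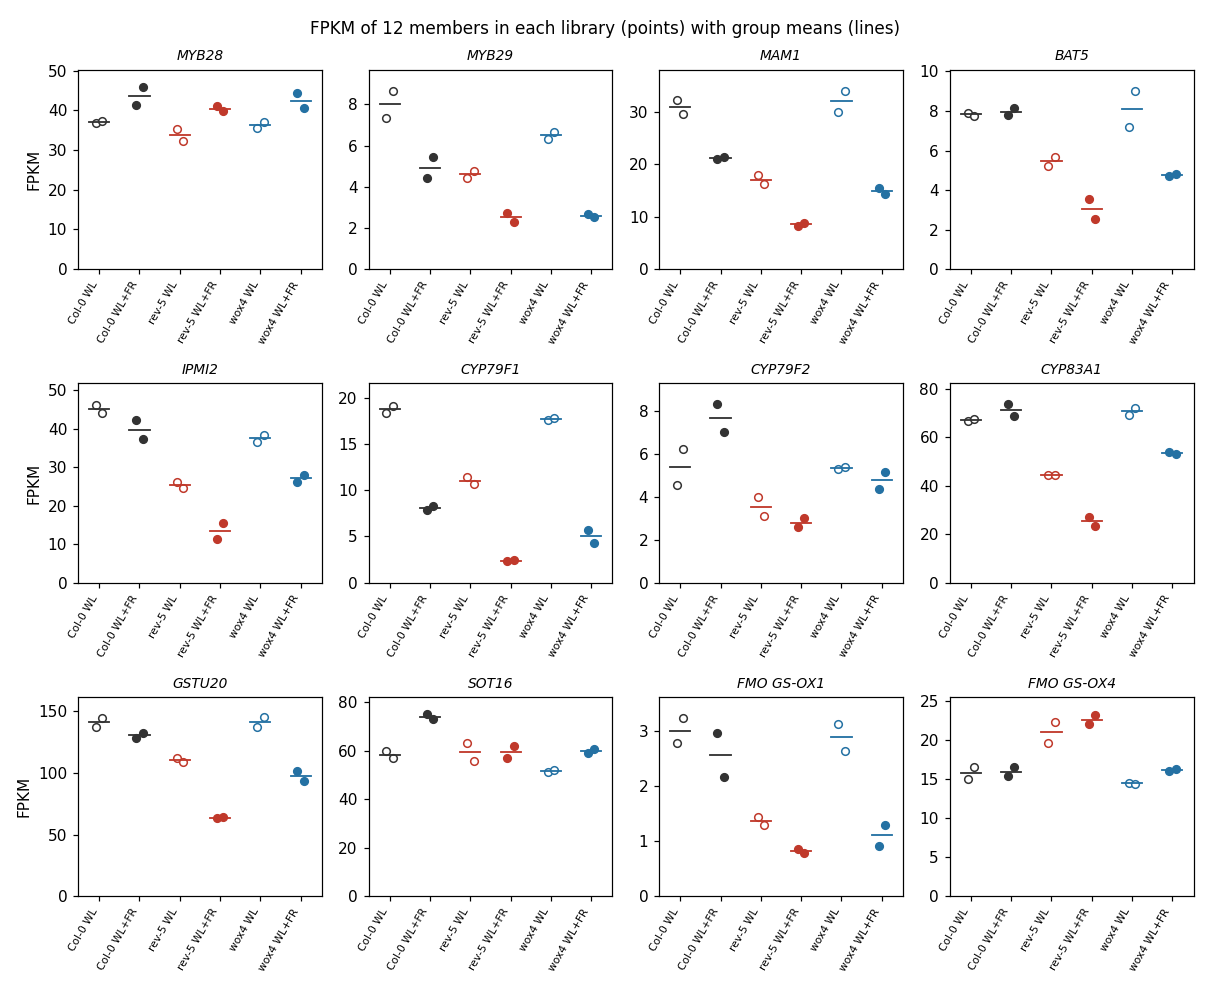
FPKM of 12 members in each of the 12 libraries (vertical axis from 0, in FPKM; open points, WL; filled points, WL+FR; lines, means of the 2 libraries of a group). *CYP79F1*, *MAM1*, *IPMI2*, *CYP83A1* and *GSTU20* are lowest in the *rev-5* WL+FR libraries, *MYB28* lies between 32.32 and 45.82 FPKM throughout, and *FMO GS-OX4* is highest in *rev-5*.

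For the statistics, log2(TPM + 1) of 20020 genes was fitted in limma, and a member was called at an adjusted p under 0.05 over all of these genes. Fold changes are on this scale, which understates the change of weakly expressed genes. The first comparison asks how *rev-5* differs from the wild type in WL+FR. Of the 28 tested members, 18 were lower and 1 higher in *rev-5*, where 3.54% of all tested genes were called in either direction, 1.76% lower and 1.77% higher. The median log2 fold change of the members was -0.77, against 0.02 for all tested genes. By step, 10 of 11 core genes, 5 of 9 elongation genes, 1 of 3 regulators and 2 of 5 tested side-chain genes were lower, and the single higher gene, *FMO GS-OX4*, belongs to the side-chain group. Both libraries of *rev-5* were below both of Col-0 in 21 of 28 members, against 20.8% of all tested genes.

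In WL the same comparison gave 10 lower members and 1 higher, with 4.67% of all tested genes called, 2.06% lower and 2.61% higher. The median of the members was -0.41, that of all tested genes 0.00. All 10 members that were lower in WL were also lower in WL+FR, and 8 were lower in WL+FR without passing the threshold in WL. The share of all tested genes called lower in both lights was not counted. The 2 lights use different libraries of both genotypes. Both *rev-5* libraries were below both of Col-0 in 22 of 28 members in WL, against 23.3% of all tested genes. The 22 include *IMDH3*, listed at 0 in both of these *rev-5* libraries, and such a 0 can be a failed estimate. By step, 5 of 11 core genes, 3 of 9 elongation genes, 1 of 3 regulators and 1 of 5 side-chain genes were lower in WL, and *FMO GS-OX4* was again the higher one.

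**Figure D2:**
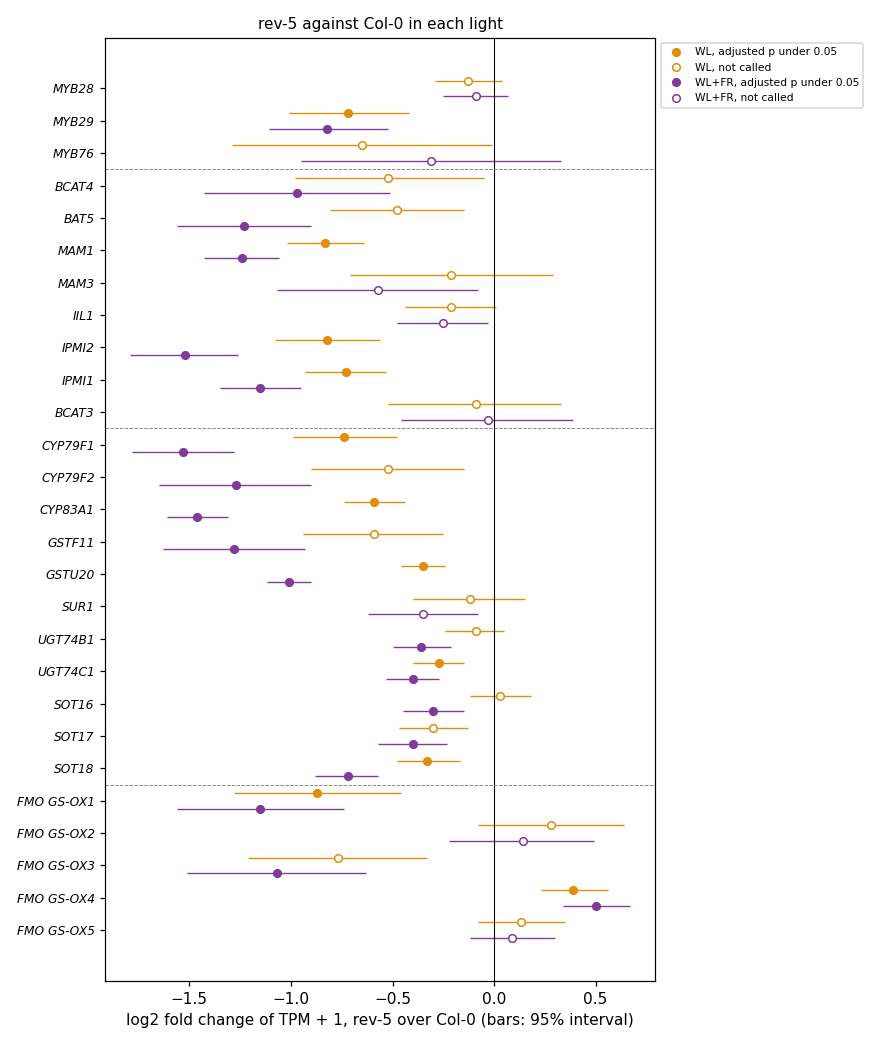
Log2 fold change of TPM + 1 between *rev-5* and Col-0 for 27 tested members (*IMDH3*, listed at 0 in most libraries, is left out), by pathway step (dashed lines), in WL and in WL+FR. Bars are 95% intervals of the limma fit and filled points have an adjusted p under 0.05. Most points of the core genes lie further left in WL+FR than in WL, down to -1.53 for *CYP79F1*, and *FMO GS-OX4* lies to the right in both lights (0.39 and 0.50).

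Not every call was held by all libraries. In WL+FR, 10 of the 19 calls were kept whichever library was left out (*MAM1*, *IPMI2*, *IPMI1*, *BAT5*, *CYP79F1*, *CYP79F2*, *CYP83A1*, *GSTF11*, *GSTU20* and *SOT18*). The other 9 had adjusted p of up to 0.20 in limma without 1 library. The count fell to 12 without Col-0 WL+FR replicate 3 and to 11 without *rev-5* WL+FR replicate 12. In WL, 5 of the 11 calls were kept (*MAM1*, *IPMI2*, *IPMI1*, *CYP83A1* and *GSTU20*), and the count fell to 7 without Col-0 WL replicate 1 or *rev-5* WL replicate 9, to 6 without Col-0 WL replicate 2 and to 5 without *rev-5* WL replicate 10. No called member changed sign in any of these fits.

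For the libraries labelled *wox4*, the same Col-0 libraries served as the reference. In WL, limma called 0 of the 28 members, with 0.265% of all tested genes called (0.0999% lower and 0.165% higher), and 2 members (*IPMI2* and *SOT16*, both lower) had an unadjusted p under 0.05, as did 9.26% of all tested genes. In WL+FR, 6 members were lower (*MYB29*, *MAM1*, *CYP79F1*, *CYP83A1*, *GSTF11* and *GSTU20*) and 0 higher, with 1.05% of all tested genes called, 0.42% lower and 0.634% higher. The median of the members was -0.03 in WL and -0.35 in WL+FR, against 0.00 and 0.05 for all tested genes. Both *wox4* libraries were below both Col-0 libraries in 9 of 28 members in WL, against 19.3% of all tested genes, and in 18 in WL+FR, against 15.3%. The 9 include *IMDH3*, which had 5.29 and 0 FPKM in *wox4* in WL. None of the 6 calls was kept whichever library was left out. The count was 0 without Col-0 WL+FR replicate 4 or *wox4* WL+FR replicate 8, and between 1 and 4 without any other library.

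The light response within each genotype shows how the pathway changed with added far-red light. In Col-0, 5 members were higher and 5 lower in WL+FR, with 17.7% of all tested genes called, 13.3% higher and 4.41% lower. In *rev-5*, 2 were higher and 10 lower, with 13.9% of all tested genes called, 11% higher and 2.83% lower. In the libraries labelled *wox4*, 3 were higher and 12 lower, with 18.8% called, 15.4% higher and 3.44% lower. The median of the members was 0.00 in Col-0 against 0.08 for all tested genes. For *rev-5* it was -0.25 against 0.11, and for *wox4* -0.23 against 0.13. *MYB28* was higher, and *MYB29*, *BCAT4*, *MAM1* and *CYP79F1* were lower, in all 3 genotypes. The share of all tested genes called the same way in all 3 was not counted.

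These light calls depended on libraries and on scaling. In Col-0, *CYP79F1*, *MAM1* and *SOT16* kept their call whichever library was left out, and the count fell to 5 without Col-0 WL replicate 2 and to 4 without Col-0 WL+FR replicate 4. In *rev-5*, 7 of 12 calls were kept (*BCAT4*, *MAM1*, *IPMI2*, *CYP79F1*, *CYP83A1*, *GSTF11* and *GSTU20*), with 8 left without *rev-5* WL replicate 10 or WL+FR replicate 12. In *wox4*, 8 of 15 calls were kept, and 8 were left without *wox4* WL replicate 6 or WL+FR replicates 7 or 8. With libraries scaled by median ratios instead of TPM, all tested genes had a median of 0.00 in each genotype. The split of the members was then 3 higher and 6 lower for Col-0, where 8.55% and 6.99% of all tested genes were called. For *rev-5* it was 0 and 12 (5.46% and 5.16%), and for *wox4* 1 and 13 (6.79% and 6.37%). A library's 10 most abundant genes held 17.57% to 18.65% of its FPKM under WL and 12.9% to 14.33% under WL+FR, and the part of this in the higher calls was not tested.

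**Figure D3:**
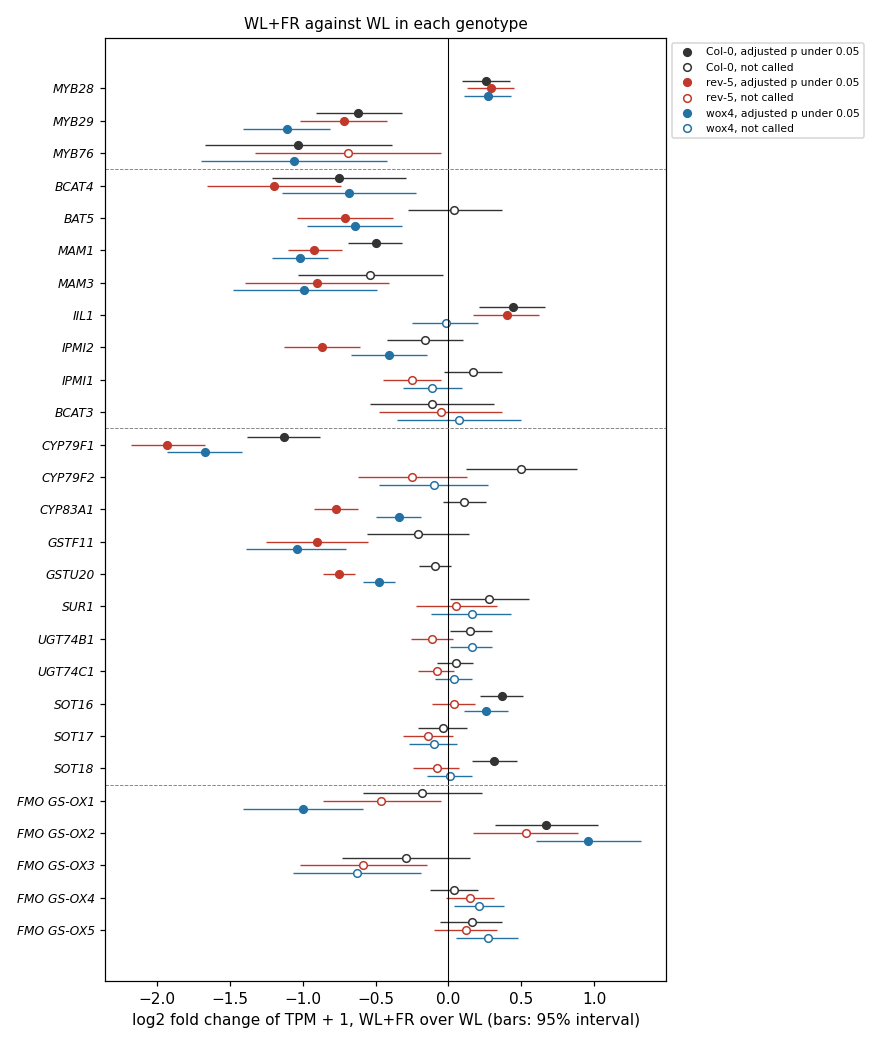
Log2 fold change of TPM + 1 between WL+FR and WL within Col-0, *rev-5* and the libraries labelled *wox4* for 27 tested members, by pathway step (dashed lines). Bars are 95% intervals of the limma fit and filled points have an adjusted p under 0.05. *CYP79F1* lies furthest left in all 3 genotypes (-1.13, -1.93 and -1.67), and *CYP83A1* and *GSTU20* are near 0 in Col-0 (0.11 and -0.09) and below 0 in *rev-5* (-0.77 and -0.75).

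The difference of these responses was tested directly. Between *rev-5* and Col-0 it was called for 2 of 28 members, both lower, where 0.395% of all tested genes were called, 0.23% lower and 0.165% higher. These were *CYP83A1*, whose response differed by -0.87 (log2, SE 0.09, adjusted p = 0.00385 in limma), and *GSTU20*, with -0.66 (SE 0.07, adjusted p = 0.00329). Both calls were kept whichever library was left out, and that of *GSTU20* was lost without a trend in the spread (adjusted p = 0.0687). At an unadjusted p under 0.05 there were 12 members, all lower, and 9.19% of all tested genes. *CYP79F1* was the next of these, with a difference of -0.79 (SE 0.16, adjusted p = 0.101). Between *wox4* and Col-0 limma called 0 members, where 0.105% of all tested genes were called (0.045% lower and 0.0599% higher), and 11 members, all lower, against 6.93% of all tested genes had an unadjusted p under 0.05. Since both mutants were set against the same Col-0 libraries, their counts are not independent of each other.

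Stricter thresholds left fewer members. At an absolute log2 fold change over 1 with an adjusted p under 0.001 in limma, 0 members differed in *rev-5* in WL, where 0.215% of all tested genes did, and 6 in WL+FR, all lower (*MAM1*, *IPMI2*, *IPMI1*, *CYP79F1*, *CYP83A1* and *GSTU20*), against 0.17%. For *wox4* there were 0 members in either light, against 0.0599% of all tested genes in each. The same fold change with an adjusted p under 0.01 gave 1 member with light in Col-0 (*CYP79F1*, 1.7% of all tested genes), 2 in *rev-5* (1.03%) and 5 in *wox4* (1.56%), and 0 for the differences of responses (0.11% for *rev-5* and 0.0649% for *wox4*).

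**Figure D4:**
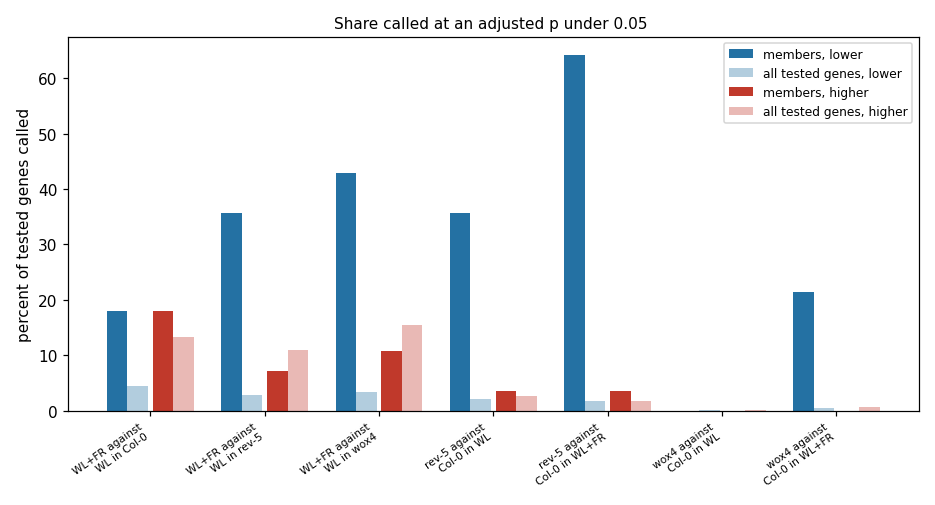
Percent of the 28 tested members and of all 20020 tested genes that were called lower (blue) or higher (red) in 7 comparisons. The members called lower reach 64.3% in *rev-5* against Col-0 in WL+FR, where 1.76% of all tested genes were lower.

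Among the regulators, *MYB28* was the most abundant in every library and differed little between genotypes. *MYB28* (AT5G61420, chromosome 5 from 24689069 to 24691187) activates genes for short and long side chains. *MYB28* had 36.7 and 37.3 FPKM in Col-0 in WL and 41.44 and 45.82 in WL+FR, 35.38 and 32.32 in *rev-5* in WL and 41.05 and 39.77 in WL+FR, and 35.63 and 37.15 in *wox4* in WL and 44.28 and 40.56 in WL+FR. The WL+FR libraries were above the WL libraries within each genotype, with log2 fold changes of 0.26 for Col-0 (adjusted p = 0.0367 in limma), 0.29 for *rev-5* (adjusted p = 0.027) and 0.27 for *wox4* (adjusted p = 0.0295) and an SE of 0.07. Each of these 3 calls was lost with median-ratio scaling, which kept the direction, and without 1 library of its own genotype (adjusted p up to 0.208). Against Col-0, its fold change in *rev-5* was -0.13 in WL (95% interval -0.29 to 0.04) and -0.09 in WL+FR (-0.25 to 0.07).

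*MYB29* (AT5G07690, chromosome 5 from 2446669 to 2448584), which acts mainly on the genes for short side chains, was lower in WL+FR in each genotype and lower in *rev-5* in each light. *MYB29* had 7.34 and 8.65 FPKM in Col-0 in WL and 4.43 and 5.44 in WL+FR, 4.45 and 4.79 in *rev-5* in WL and 2.74 and 2.29 in WL+FR, and 6.34 and 6.65 in *wox4* in WL and 2.67 and 2.52 in WL+FR. With light it fell by 0.62 in Col-0 (adjusted p = 0.0106 in limma, up to 0.0822 without 1 library), by 0.72 in *rev-5* (adjusted p = 0.00633, up to 0.054) and by 1.11 in *wox4* (adjusted p = 0.000386, called without any 1 library). The highest values were in Col-0 in WL, and the 4 mutant libraries in WL+FR were below all others. Against Col-0 the log2 fold change of *rev-5* was -0.72 in WL (SE 0.13, adjusted p = 0.0151) and -0.82 in WL+FR (SE 0.13, adjusted p = 0.0111), and that of *wox4* in WL+FR was -0.77 (SE 0.13, adjusted p = 0.0349, all in limma). Without 1 library these adjusted p reached 0.108, 0.0867 and 0.188.

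*MYB76* (AT5G07700, chromosome 5 from 2450027 to 2451807), the next gene on the chromosome, was near the limit of detection, with at most 22 fragments as estimated from the bounds deposited with each value. *MYB76* had 1.29 and 1.27 FPKM in Col-0 in WL, 0.48 and 0.19 in WL+FR, 0.72 and 0.49 in *rev-5* in WL, 0.19 and 0.1 in WL+FR, 0.53 and 1.15 in *wox4* in WL, and 0 and 0.16 in WL+FR, where replicate 7 was listed at 0. All 6 WL+FR libraries were below all 6 WL libraries. In Col-0 the log2 fold change with light was -1.03 (SE 0.28, adjusted p = 0.0337 in limma), a call lost without Col-0 WL replicate 1 or 2 or WL+FR replicate 4 (adjusted p up to 0.171). For *wox4* the change with light was -1.06 (adjusted p = 0.0292 in limma), a call lost without *wox4* WL replicate 6 or WL+FR replicate 7 or 8. No comparison of a mutant with Col-0 passed the threshold.

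The ratio of *MYB28* to *MYB29* within a library thus shifted with both light and genotype. It was 5.0 and 4.31 in Col-0 in WL and 9.36 and 8.42 in WL+FR, 7.94 and 6.75 in *rev-5* in WL and 14.99 and 17.34 in WL+FR, and 5.62 and 5.59 in *wox4* in WL and 16.56 and 16.07 in WL+FR. The groups did not overlap between WL and WL+FR in any genotype, and both mutants were above Col-0 in each light.

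Side-chain elongation begins with *BCAT4* (AT3G19710, chromosome 3 from 6846969 to 6849582), the aminotransferase that takes the amino group from methionine. *BCAT4* had 2.53 and 3.48 FPKM in Col-0 in WL and 1.81 and 1.24 in WL+FR, 2.15 and 1.67 in *rev-5* in WL and 0.53 and 0.43 in WL+FR, and 2.75 and 2.74 in *wox4* in WL and 1.24 and 1.66 in WL+FR. WL+FR libraries were below WL libraries in each genotype, and the *rev-5* WL+FR libraries, with as few as 6 fragments, were the lowest. With light it changed by -0.75 in Col-0 (SE 0.21, adjusted p = 0.0336 in limma), -1.20 in *rev-5* (adjusted p = 0.00443) and, for *wox4*, -0.68 (adjusted p = 0.0479), and without 1 library the adjusted p reached 0.195 in Col-0 and 0.23 in *wox4*. The log2 fold change of *rev-5* against Col-0 in WL+FR was -0.97 (SE 0.21, adjusted p = 0.0355 in limma, up to 0.186 without 1 library). Over 307 bases *BCAT4* overlaps *IKU2*, which was listed at 0 in every library.

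*BAT5* (AT4G12030, chromosome 4 from 7210807 to 7213376) encodes the plastid envelope transporter that imports the keto acid made from methionine. *BAT5* had 7.89 and 7.77 FPKM in Col-0 in WL and 7.78 and 8.15 in WL+FR, 5.23 and 5.67 in *rev-5* in WL and 3.56 and 2.55 in WL+FR, and 7.18 and 9.02 in *wox4* in WL and 4.7 and 4.83 in WL+FR. It did not move with light in Col-0 beyond the spread of its libraries (log2 0.04, 95% interval -0.28 to 0.37), whereas both mutants were lower in WL+FR than in WL, with log2 fold changes of -0.71 in *rev-5* (SE 0.15, adjusted p = 0.0115 in limma) and -0.64 in *wox4* (SE 0.15, adjusted p = 0.0141). Without 1 library these adjusted p reached 0.0732 and 0.101, the first call being lost without *rev-5* WL replicate 10 or WL+FR replicate 12 and the second without *wox4* WL replicate 6 or WL+FR replicate 7 or 8. The difference of responses between *rev-5* and Col-0, -0.75, did not pass the threshold (SE 0.21, adjusted p = 0.267). Against Col-0 in WL+FR, *rev-5* differed by -1.23 (SE 0.15, adjusted p = 0.00215).

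*MAM1* (AT5G23010, chromosome 5 from 7703041 to 7706973), the synthase that condenses the keto acid with acetyl-CoA, was lower in WL+FR in every genotype. *MAM1* had 32.2 and 29.48 FPKM in Col-0 in WL and 20.98 and 21.42 in WL+FR, 17.85 and 16.29 in *rev-5* in WL and 8.3 and 8.75 in WL+FR, and 30.02 and 33.9 in *wox4* in WL and 15.42 and 14.33 in WL+FR. Each *rev-5* library was below every Col-0 library of the same light, and in WL+FR the *wox4* libraries lay between those of *rev-5* and Col-0. The log2 fold change with light was -0.50 in Col-0 (SE 0.08, adjusted p = 0.00259 in limma), -0.92 in *rev-5* (adjusted p = 0.000101) and, for *wox4*, -1.02 (adjusted p = 3.56e-05). Against Col-0, *rev-5* differed by -0.83 in WL (adjusted p = 0.000711) and -1.24 in WL+FR (adjusted p = 7.12e-05), with an SE of 0.08 in each fit. The *wox4* difference in WL+FR, -0.47, had an adjusted p of 0.0394, which reached 0.221 without 1 library.

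The neighbouring synthase gene *MAM3* (AT5G23020, chromosome 5 from 7718118 to 7721866), needed for long side chains, was far less abundant, between 0.08 and 1.88 FPKM. *MAM3* was lower with light in *rev-5* (-0.90, SE 0.22, adjusted p = 0.0253 in limma) and in *wox4* (-0.99, SE 0.22, adjusted p = 0.013), calls that did not hold without 1 library of the group (adjusted p up to 0.125 and 0.094). In Col-0 it was also lower, with 0.99 and 0.96 FPKM in WL and 0.43 and 0.53 in WL+FR, but was not called. *MAM3* rested on as few as 2 fragments in a library.

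The isomerase of the cycle has a large subunit, *IIL1*, shared with leucine synthesis, and small subunits that include *IPMI2* and *IPMI1*. The small subunits were lower in *rev-5* in both lights, and the large subunit did not pass the threshold in either. *IPMI2* (AT2G43100, chromosome 2 from 17920647 to 17921844) had 46.26 and 44.05 FPKM in Col-0 in WL and 42.3 and 37.31 in WL+FR, 26.08 and 24.62 in *rev-5* in WL and 11.42 and 15.44 in WL+FR, and 36.55 and 38.43 in *wox4* in WL and 26.24 and 27.97 in WL+FR. *IPMI1* (AT3G58990, chromosome 3 from 21797058 to 21798303) had 27.64 and 31.24 FPKM in Col-0 in WL and 35.2 and 30.24 in WL+FR, 16.74 and 18.3 in *rev-5* in WL and 13.43 and 15.14 in WL+FR, and 25.82 and 28.12 in *wox4* in WL and 24.6 and 23.58 in WL+FR. In both genes the *rev-5* libraries were below all others. *IPMI2* differed from Col-0 by -0.82 in WL (SE 0.12, adjusted p = 0.00395 in limma) and -1.52 in WL+FR (SE 0.12, adjusted p = 0.00017), and *IPMI1* by -0.73 (SE 0.09, adjusted p = 0.00203) and -1.15 (SE 0.09, adjusted p = 0.000196). *IPMI2* also changed with light in *rev-5*, by -0.87 (adjusted p = 0.00111), and in *wox4*, by -0.41 (adjusted p = 0.0371, up to 0.178 without 1 library).

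*IIL1* ranged from 6.77 to 11.93 FPKM and was higher in WL+FR in Col-0 (0.44, SE 0.10, adjusted p = 0.0148 in limma) and in *rev-5* (0.40, SE 0.10, adjusted p = 0.0285), with -0.02 in *wox4* (95% interval -0.25 to 0.20). These 2 calls were lost without Col-0 WL replicate 2 or WL+FR replicate 4, and without any 1 of the *rev-5* libraries (adjusted p up to 0.10 and 0.152). Against Col-0, *IIL1* in *rev-5* had -0.21 in WL (95% interval -0.44 to 0.01) and -0.25 in WL+FR (-0.48 to -0.03, adjusted p = 0.232).

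*IMDH3* (AT5G14200, chromosome 5 from 4576123 to 4578402), a dehydrogenase of the cycle, was listed at 0 in 8 of 12 libraries. *IMDH3* had 5.37 and 5.98 FPKM in Col-0 in WL, 0 and 4.55 in Col-0 in WL+FR and 5.29 and 0 in *wox4* in WL, and it was listed at 0 in both *wox4* WL+FR libraries and in all 4 *rev-5* libraries. The values above 0 rested on 78 to 105 fragments, and a replicate of the same group was at 0 in 2 groups, so no fold change is given. Of its exonic 50-base stretches, 7.84% occur more than once in the genome. It overlaps AT5G14210 by 25 bases, which had 9.11 to 12.86 FPKM in the 12 libraries. Without *IMDH3* and *MYB76*, the median of the members in *rev-5* against Col-0 was -0.34 in WL and -0.77 in WL+FR. *BCAT3*, the plastid aminotransferase that closes the cycle, ranged from 4.77 to 7.91 FPKM and passed the threshold in no comparison.

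The core structure starts with the aldoxime-forming P450 enzymes *CYP79F1* and *CYP79F2*, whose genes lie in tandem on chromosome 1 and whose levels came close to each other in WL+FR. CYP79F1 accepts methionine derivatives of all chain lengths and CYP79F2 the long ones. *CYP79F1* (AT1G16410, from 5608682 to 5612064) had 18.31 and 19.13 FPKM in Col-0 in WL and 7.85 and 8.33 in WL+FR, 11.39 and 10.62 in *rev-5* in WL and 2.38 and 2.42 in WL+FR, and 17.62 and 17.75 in *wox4* in WL and 5.72 and 4.29 in WL+FR. *CYP79F2* (AT1G16400, from 5605044 to 5607498) had 4.53 and 6.23 FPKM in Col-0 in WL and 8.31 and 7.02 in WL+FR, 3.97 and 3.1 in *rev-5* in WL and 2.58 and 3.01 in WL+FR, and 5.3 and 5.39 in *wox4* in WL and 4.37 and 5.17 in WL+FR. With added far-red light *CYP79F1* was lower in every genotype, whereas both Col-0 libraries of *CYP79F2* were higher in WL+FR and those of the mutants were not.

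*CYP79F1* changed with light by -1.13 in Col-0 (SE 0.11, adjusted p = 0.000126 in limma), -1.93 in *rev-5* (SE 0.11, adjusted p = 7.27e-06) and -1.67 in *wox4* (SE 0.11, adjusted p = 1.18e-05), and all 3 calls were kept without any 1 library. For *CYP79F2* the same values were 0.50 (95% interval 0.12 to 0.88, adjusted p = 0.0712), -0.25 (-0.62 to 0.13) and -0.10 (-0.48 to 0.27). Against Col-0, *rev-5* differed in *CYP79F1* by -0.74 in WL (SE 0.11, adjusted p = 0.00584) and -1.53 in WL+FR (adjusted p = 0.000142), the former call being lost without Col-0 WL replicate 2 or *rev-5* WL replicate 10 (adjusted p up to 0.0508). In *CYP79F2* it had -0.52 in WL (95% interval -0.90 to -0.15, adjusted p = 0.123) and -1.27 in WL+FR (SE 0.17, adjusted p = 0.00367). The *wox4* difference of *CYP79F1* in WL+FR, -0.62, had an adjusted p of 0.0403, up to 0.167 without 1 library.

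The ratio of *CYP79F1* to *CYP79F2* followed the light in each genotype. In WL it was 4.04 and 3.07 in Col-0, 2.87 and 3.43 in *rev-5* and 3.32 and 3.29 in *wox4*. In WL+FR it was 0.95 and 1.19 in Col-0, 0.92 and 0.8 in *rev-5* and 1.31 and 0.83 in *wox4*. No WL+FR library reached any WL library, and within a light the ranges of the genotypes overlapped, except those of *rev-5* and Col-0 in WL+FR. The transcripts of the pair share 54 stretches of 50 bases, 1.72% of those of *CYP79F1* and 2.89% of those of *CYP79F2*, so few fragments could be shared between them.

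**Figure D5:**
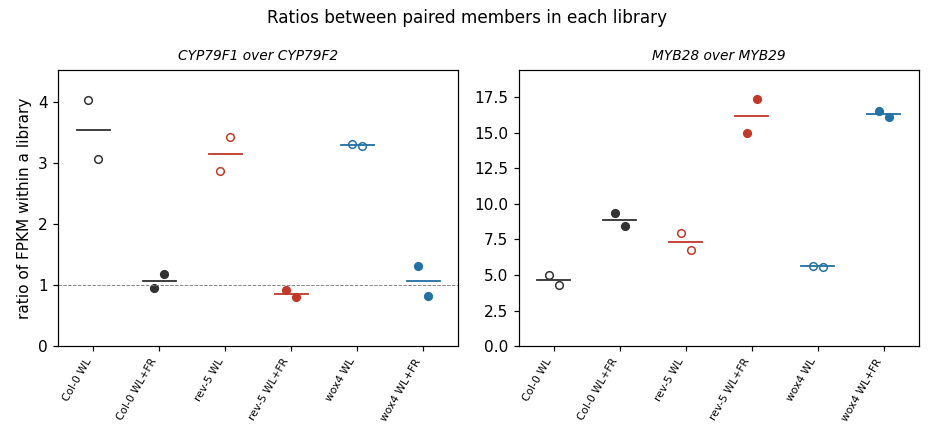
Ratio of FPKM within each library of *CYP79F1* to *CYP79F2* (left, dashed line at 1) and of *MYB28* to *MYB29* (right), with group means as lines (open points, WL; filled points, WL+FR). The left ratio is 2.87 to 4.04 in WL and 0.8 to 1.31 in WL+FR in all genotypes, and the right one is 4.31 to 7.94 in WL and 8.42 to 17.34 in WL+FR.

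*CYP83A1* (AT4G13770, chromosome 4 from 7990429 to 7992429), the P450 enzyme that oxidises the aliphatic aldoximes, was one of the 2 members whose light response differed between *rev-5* and Col-0. *CYP83A1* had 66.68 and 67.74 FPKM in Col-0 in WL and 73.74 and 68.91 in WL+FR, 44.45 and 44.41 in *rev-5* in WL and 27.1 and 23.45 in WL+FR, and 69.19 and 72.3 in *wox4* in WL and 54.04 and 53.16 in WL+FR. In Col-0 both WL+FR libraries were above those in WL, and in both mutants they were below. The log2 fold change with light was 0.11 in Col-0 (95% interval -0.04 to 0.26, beside a median of 0.08 for all tested genes), -0.77 in *rev-5* (SE 0.07, adjusted p = 8.32e-05 in limma) and -0.34 in *wox4* (SE 0.07, adjusted p = 0.00666). Against Col-0, *rev-5* differed by -0.59 in WL (SE 0.07, adjusted p = 0.0013) and by -1.46 in WL+FR (SE 0.07, adjusted p = 6.91e-06), where its mean was 35.8% of that of Col-0. In *wox4* the difference in WL+FR was -0.38 (SE 0.07, adjusted p = 0.0391, up to 0.19 without 1 library).

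The next step joins the activated intermediate to glutathione, a role given to *GSTF11* and *GSTU20*. *GSTU20* (AT1G78370, chromosome 1 from 29484120 to 29485389), the most abundant member, had 137.13 and 144.93 FPKM in Col-0 in WL and 128.6 and 132.44 in WL+FR, 112.32 and 108.74 in *rev-5* in WL and 63.3 and 64.35 in WL+FR, and 137.01 and 145.77 in *wox4* in WL and 101.33 and 93.75 in WL+FR. The *rev-5* WL+FR libraries were the lowest, and the *wox4* WL+FR libraries were below those of *rev-5* in WL. Its log2 fold change with light was -0.09 in Col-0 (95% interval -0.20 to 0.02), -0.75 in *rev-5* (SE 0.05, adjusted p = 1.45e-05 in limma) and -0.48 in *wox4* (SE 0.05, adjusted p = 0.000148). Against Col-0, *rev-5* differed by -0.35 in WL (SE 0.05, adjusted p = 0.00372) and -1.01 in WL+FR (SE 0.05, adjusted p = 8.61e-06). In *wox4* the value in WL+FR was -0.39 (SE 0.05, adjusted p = 0.0106), a call lost without Col-0 WL+FR replicate 4 or *wox4* WL+FR replicate 8 (adjusted p up to 0.0866).

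*GSTF11* (AT3G03190, chromosome 3 from 734892 to 735987) had 5.08 and 5.16 FPKM in Col-0 in WL and 3.71 and 4.89 in WL+FR, 3.13 and 3.25 in *rev-5* in WL and 1.48 and 1.32 in WL+FR, and 5.73 and 4.76 in *wox4* in WL and 2.39 and 1.93 in WL+FR. The mutant libraries in WL+FR were below all others. *GSTF11* changed with light by -0.90 in *rev-5* (SE 0.15, adjusted p = 0.00457 in limma) and by -1.04 in *wox4* (SE 0.15, adjusted p = 0.00144), and -0.21 in Col-0 did not pass the threshold. In WL+FR, *rev-5* differed from Col-0 by -1.28 (SE 0.15, adjusted p = 0.00238 in limma), and *wox4* by -0.80 (SE 0.15, adjusted p = 0.0487), a call lost whichever library was left out (adjusted p up to 0.265). All 1096 bases of *GSTF11* lie within *NAC045*, which had 0.28 to 1.17 FPKM, and fragments of the pair cannot be told apart without strand.

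The following enzymes are shared in part with the synthesis of indole glucosinolates. *SUR1*, the C-S lyase of both classes, ranged from 13.42 to 20.75 FPKM and was the core gene not called in *rev-5* in WL+FR (-0.35, 95% interval -0.62 to -0.08, adjusted p = 0.172 in limma). The glucosyltransferase gene *UGT74B1* (AT1G24100, chromosome 1 from 8525334 to 8527087) had 38.94 and 36.55 FPKM in Col-0 in WL and 41.51 and 41.23 in WL+FR, 35.12 and 35.56 in *rev-5* in WL and 31.84 and 31.76 in WL+FR, and 34.79 and 36.88 in *wox4* in WL and 41.22 and 36.19 in WL+FR. *UGT74C1* (AT2G31790, chromosome 2 from 13518199 to 13520364), a glucosyltransferase of the aliphatic branch, had 36.38 and 37.02 FPKM in Col-0 in WL and 36.29 and 38.29 in WL+FR, 30.92 and 29.6 in *rev-5* in WL and 28.37 and 27.28 in WL+FR, and 35.73 and 34.42 in *wox4* in WL and 35.28 and 34.1 in WL+FR. In *UGT74C1* all *rev-5* libraries were below the others, in *UGT74B1* those in WL+FR. Against Col-0 in WL+FR they differed by -0.36 (*UGT74B1*, SE 0.06, adjusted p = 0.0179, up to 0.114 without 1 library) and -0.40 (*UGT74C1*, SE 0.06, adjusted p = 0.00544, 0.0501 without *rev-5* WL+FR replicate 12). In WL *UGT74C1* differed by -0.27 (SE 0.06, adjusted p = 0.0251, up to 0.14 without 1 library).

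The sulfotransferases finish the core glucosinolate. *SOT18* (AT1G74090, chromosome 1 from 27862814 to 27864193), which acts on aliphatic substrates, had 35.98 and 35.04 FPKM in Col-0 in WL and 41.67 and 45.56 in WL+FR, 27.39 and 28.91 in *rev-5* in WL and 27.08 and 24.69 in WL+FR, and 35.94 and 34.23 in *wox4* in WL and 34.06 and 33.84 in WL+FR. *SOT17* (AT1G18590, chromosome 1 from 6398531 to 6400029), also of the aliphatic branch, had 18.64 and 18.08 FPKM in Col-0 in WL and 17.64 and 17.51 in WL+FR, 14.27 and 15.39 in *rev-5* in WL and 13.7 and 12.43 in WL+FR, and 15.91 and 16.74 in *wox4* in WL and 15.26 and 13.99 in WL+FR. *SOT16* (AT1G74100, chromosome 1 from 27864345 to 27865694), which prefers indolic substrates, had 59.71 and 56.81 FPKM in Col-0 in WL and 74.96 and 73.09 in WL+FR, 63.01 and 55.88 in *rev-5* in WL and 56.87 and 61.88 in WL+FR, and 51.36 and 52.0 in *wox4* in WL and 59.18 and 60.56 in WL+FR. *SOT16* and *SOT18* were highest in Col-0 in WL+FR, and *rev-5* overlapped Col-0 in WL in *SOT16* alone of the 3.

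In *rev-5* against Col-0 in WL+FR the log2 fold changes were -0.72 for *SOT18* (SE 0.07, adjusted p = 0.000636 in limma), -0.40 for *SOT17* (SE 0.07, adjusted p = 0.0211) and -0.30 for *SOT16* (SE 0.07, adjusted p = 0.039), and without 1 library the adjusted p of *SOT17* and *SOT16* reached 0.146 and 0.20. In WL the values were -0.33 for *SOT18* (SE 0.07, adjusted p = 0.0285, up to 0.154 without 1 library), -0.30 for *SOT17* (95% interval -0.47 to -0.13) and 0.03 for *SOT16* (-0.12 to 0.18). With light in Col-0, *SOT16* rose by 0.37 (SE 0.07, adjusted p = 0.00403 in limma) and *SOT18* by 0.31 (SE 0.07, adjusted p = 0.0124). The latter call was lost with median-ratio scaling and without Col-0 WL replicate 2 or WL+FR replicate 4. In *wox4*, *SOT16* rose by 0.26 (adjusted p = 0.0218 in limma). That call was lost with median-ratio scaling and without any 1 of the *wox4* libraries.

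In side-chain modification, the flavin monooxygenases of the FMO GS-OX family turn the methylthio group into a methylsulfinyl group, and their genes went in different directions. *FMO GS-OX1* (AT1G65860, chromosome 1 from 24498954 to 24502776) had 2.78 and 3.23 FPKM in Col-0 in WL and 2.96 and 2.17 in WL+FR, 1.44 and 1.3 in *rev-5* in WL and 0.86 and 0.78 in WL+FR, and 3.12 and 2.64 in *wox4* in WL and 0.92 and 1.3 in WL+FR. *FMO GS-OX3* (AT1G62560, chromosome 1 from 23159734 to 23162881) had 4.93 and 5.38 FPKM in Col-0 in WL and 3.79 and 4.32 in WL+FR, 3.01 and 2.54 in *rev-5* in WL and 1.25 and 2.04 in WL+FR, and 4.6 and 5.51 in *wox4* in WL and 3.46 and 2.5 in WL+FR. In both genes the *rev-5* libraries were below those of Col-0 in each light. *FMO GS-OX1* differed in *rev-5* by -0.87 in WL (SE 0.18, adjusted p = 0.0269 in limma) and -1.15 in WL+FR (SE 0.18, adjusted p = 0.00981), and *FMO GS-OX3* by -1.07 in WL+FR (SE 0.20, adjusted p = 0.0192). Without 1 library these adjusted p reached 0.147, 0.0741 and 0.115. In *wox4*, *FMO GS-OX1* was lower with light (log2 fold change -1, SE 0.18, adjusted p = 0.0045).

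*FMO GS-OX4* (AT1G62570, chromosome 1 from 23168767 to 23172175) was the member that was higher in *rev-5*, in both lights. *FMO GS-OX4* had 15.03 and 16.55 FPKM in Col-0 in WL and 15.4 and 16.45 in WL+FR, 19.64 and 22.2 in *rev-5* in WL and 21.97 and 23.17 in WL+FR, and 14.46 and 14.37 in *wox4* in WL and 16.04 and 16.26 in WL+FR. All 4 *rev-5* libraries were above the other 8. Against Col-0 its log2 fold change was 0.39 in WL (SE 0.07, adjusted p = 0.0176 in limma) and 0.50 in WL+FR (SE 0.07, adjusted p = 0.00725). The call in WL was lost without Col-0 WL replicate 1 or *rev-5* WL replicate 10 (adjusted p up to 0.115), and that in WL+FR without Col-0 WL+FR replicate 3 or *rev-5* WL+FR replicate 12 (up to 0.0631).

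*FMO GS-OX2* (AT1G62540, chromosome 1 from 23151634 to 23155728) was the side-chain gene with the largest light response in Col-0. *FMO GS-OX2* had 1.57 and 1.92 FPKM in Col-0 in WL and 2.63 and 3.57 in WL+FR, 2.38 and 2.09 in *rev-5* in WL and 3.33 and 3.46 in WL+FR, and 1.94 and 1.71 in *wox4* in WL and 4.18 and 3.75 in WL+FR. All WL+FR libraries were above all WL libraries. The log2 fold change with light was 0.67 in Col-0 (SE 0.16, adjusted p = 0.0169 in limma, lost without Col-0 WL replicate 1 or WL+FR replicate 4, adjusted p up to 0.107), 0.53 in *rev-5* (95% interval 0.17 to 0.89, adjusted p = 0.0554) and 0.96 in *wox4* (SE 0.16, adjusted p = 0.00267). *FMO GS-OX5*, known for long side chains, ranged from 20.32 to 27.46 FPKM and passed the threshold in no comparison. *AOP3* (AT4G03050, chromosome 4 from 1343845 to 1346436), of the locus that makes hydroxyalkyl side chains in other accessions, was listed at 0 throughout and was not tested.

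Of 18 related genes outside the members, for transport, sulfur and precursor supply and regulation, 15 were tested. None was called by limma in any comparison of a mutant with Col-0 or in a difference of light responses, and 1 to 4 of the 15 had an unadjusted p under 0.05 in each of these 6 comparisons, where 6.93% to 18.6% of all tested genes did. With light, 6 were higher and 0 lower in Col-0 (13.3% and 4.41% of all tested genes), 6 and 0 in *rev-5* (11% and 2.83%) and 5 and 0 in *wox4* (15.4% and 3.44%). These counts depended on scaling, in alternatives chosen after seeing the data. With median-ratio scaling 3 were higher in Col-0, *rev-5* had 2 and *wox4* 1, where another 1 was lower, and with quantile normalization 1, 2 and 2 were higher, with 1 lower in *wox4*. The genes called higher with TPM in all 3 genotypes were *GS-OH*, the transporter genes *GTR1* and *GTR2* and the bHLH gene *MYC4*. Their log2 fold changes in Col-0, *rev-5* and *wox4* were 0.2, 0.13 and 0.13 for *GS-OH* and 0.28, 0.22 and 0.36 for *GTR1*. For *GTR2* they were 0.36, 0.21 and 0.26, and for *MYC4* 0.48, 0.58 and 0.53. None of these genes was called in all 3 genotypes under either of these scalings.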

How the data were processed

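The authors sequenced 12 RNA libraries, aligned read pairs to TAIR10 with HISAT2 by the paper's methods, and deposited an FPKM value per gene with 2 bounds. The submitters' notes name FastQC, Bowtie2 and Cufflinks. Groups came from the labels. For 2 genes with 2 rows the rows were summed, and locus starts, counted from 0, were raised by 1. FPKM was rescaled to TPM, and limma 3.58.1 under R 4.3.3 fitted log2(TPM + 1) with group means and a trended spread, for the 20020 genes averaging 0.5 TPM or more. P values were adjusted over these genes by Benjamini-Hochberg, with a threshold of 0.05. An exact permutation test of 2 against 2 libraries cannot go below 0.333. The fit was tested on simulated data. Tables and plots used Python 3.11.15, pandas 2.3.3, numpy 2.4.6 and matplotlib 3.10.9. Fragments behind a value were estimated from its bounds, taken as counting error only. Promoters came from RefSeq's TAIR10.1, where all 29 members have the tables' positions.

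The members, gene lists, motifs and tests were chosen with earlier results of these data known. Values per library are given for the MYB genes, for members listed at 0, for those called against Col-0 or in a difference of responses, and for the largest response of Col-0 in each step. Alternatives were a pseudocount of 0.1, no filter, unscaled FPKM, quantile and median-ratio scaling, no trend, other thresholds, genes above 0 throughout, fewer genotypes in the fit and leaving out each library.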

Additional observations from a re-analysis of the deposited data

Results flagged for a closer look

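The light responses of *CYP83A1* and *GSTU20* differed between *rev-5* and Col-0 by the test of the difference itself. The response of *rev-5* minus that of Col-0 was -0.87 in log2 for *CYP83A1* (SE 0.09, adjusted p = 0.00385 in limma) and -0.66 for *GSTU20* (SE 0.07, adjusted p = 0.00329). In both genes the 2 *rev-5* WL+FR libraries were below the 2 in WL, while in Col-0 the change was 0.11 and -0.09. Leaving out any 1 library left the difference of *CYP83A1* between -0.99 and -0.76 and that of *GSTU20* between -0.69 and -0.63, and without a trend in the spread that of *GSTU20* did not pass the threshold (adjusted p = 0.0687).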

How the results depend on the processing

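No called member changed sign under any alternative run. With the stricter thresholds, which follow the paper, the members called were 1 of 10 with light in Col-0, 2 of 12 in *rev-5* and 5 of 15 in *wox4*, 0 of 11 in *rev-5* against Col-0 in WL and 6 of 19 in WL+FR, 0 of 6 in *wox4* against Col-0 in WL+FR, and 0 of 2 for the difference of responses of *rev-5*. With only the genotypes compared in the fit, which has fewer libraries, the light response of Col-0 gave 3 members and *wox4* against Col-0 in WL+FR gave 3. The latter gave 3 without a filter, 0 without a trend and 10 with only genes above 0 in all libraries, and the difference of responses of *rev-5* gave 1 without a trend. The cause was not tested. Leaving out each library in turn gave 4 to 10 members with light for Col-0, 8 to 13 for *rev-5* and 8 to 15 for *wox4*, 5 to 12 in *rev-5* against Col-0 in WL and 11 to 19 in WL+FR, 0 to 0 in *wox4* against Col-0 in WL and 0 to 4 in WL+FR, 2 to 3 for the difference of responses of *rev-5* and 0 to 0 for that of *wox4*, the lone library of a group being assumed to vary like the other groups. With quantile normalization the share of higher calls among all genes with light was 51.6% in place of 75.1% for Col-0, 50.5% in place of 79.6% for *rev-5* and 51.7% in place of 81.7% for *wox4*. No paired analysis was possible because the replicate numbers run from 1 to 12 and no number is shared between groups. Of the related genes, those called with light numbered 6 for Col-0, 6 for *rev-5* and 5 for *wox4*, against 3, 2 and 2 with median-ratio scaling and 1, 2 and 3 with quantile normalization, added after seeing the data. Values of *MYB76*, *MAM3* and *BCAT4* rested on few fragments in some libraries.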
